A study of Mus musculus with 5 samples.

Results

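A small group of neutrophils from mice with AT3 tumours carried the transcript of Saa3, and the values below describe these cells beside their neighbours without it and beside neutrophils from mice with AT3-gcsf tumours. The group holds 192 cells, hereafter Saa3 cells, of 7423 AT3 neutrophils that passed the filters and of 24456 passing cells in all 3 libraries. A cell was counted when it had at least 200 detected genes, under 10% mitochondrial transcripts, S100a8 with S100a9 at 2% or more of its unique molecular identifiers (UMIs, each marking 1 captured transcript), a single dominant hashtag, and at least 2 Saa3 UMIs. Cells were thus selected on their Saa3 UMIs, and the Saa3 level below describes that choice and is no finding. They are set against the 6983 AT3 cells with 0 Saa3 UMIs that carry the same hashtags, called zero-Saa3 cells. The 248 AT3 cells with exactly 1 Saa3 UMI belong to neither class, and 7 further cells with 2 or more Saa3 UMIs had no dominant hashtag and were left out.

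Neutrophils had been sorted by flow cytometry from the bone marrow, blood and lungs of female wild-type C57BL/6J mice and profiled as single cells on the 10x Chromium platform. The AT3 group came from animals carrying the AT3 tumour, a mouse mammary carcinoma line, the AT3-gcsf group from animals carrying a form of that line named for G-CSF, the cytokine that drives neutrophil production, and the naive group from animals without tumour. Each condition was sequenced as 1 library in which 3 hashtags (MHTO7, MHTO8 and MHTO10 in AT3, MHTO3, MHTO4 and MHTO5 in both other libraries) mark separately labelled cell suspensions. The labels tie no hashtag to a tissue and do not say how many mice were pooled, so no difference below has a replicate check, no p-value is given, and all intervals cover counting error only.

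Saa3 encodes serum amyloid A3, a small lipid-binding acute phase protein that in mice is made mainly outside the liver, for example by macrophages and adipose tissue, whereas its relatives Saa1 and Saa2 are the circulating forms secreted by the liver. Inflammatory cytokines are known to switch these genes on through NF-kB and C/EBP factors, and serum amyloid A proteins can act on Toll-like and formyl peptide receptors of myeloid cells. G-CSF acts on neutrophils through its receptor Csf3r and the transcription factor Stat3.

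The Saa3 gene lies on the minus strand of chromosome 7 at chr7:46711998-46715700 and Saa1 on the same strand at chr7:46740497-46742980 (GRCm38, GENCODE). Their promoter sequences are shown because Saa1 was the serum amyloid gene found most often beside Saa3. Each sequence runs 5′ to 3′ on the sense strand from 250 bases before to 50 bases after the transcription start (RefSeq, GRCm38.p6, chr7:46715627-46715926 for Saa3 and chr7:46742931-46743230 for Saa1, both minus strand). Capitals mark matches to the C/EBP-type motif TTNNGCAA and the TATA-type motif TATATA, searched on both strands.
Saa3: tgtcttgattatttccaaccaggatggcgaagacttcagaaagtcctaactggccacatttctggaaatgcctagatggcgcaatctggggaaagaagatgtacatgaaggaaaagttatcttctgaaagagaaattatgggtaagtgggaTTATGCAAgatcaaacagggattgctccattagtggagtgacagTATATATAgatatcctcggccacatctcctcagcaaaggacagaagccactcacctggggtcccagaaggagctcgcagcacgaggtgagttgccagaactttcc
Saa1: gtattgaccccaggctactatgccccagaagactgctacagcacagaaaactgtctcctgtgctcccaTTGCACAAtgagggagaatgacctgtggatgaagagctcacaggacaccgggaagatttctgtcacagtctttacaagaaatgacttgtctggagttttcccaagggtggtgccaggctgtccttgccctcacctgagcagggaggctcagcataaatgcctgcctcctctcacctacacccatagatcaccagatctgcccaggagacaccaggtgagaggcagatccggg
The Saa3 window held 1 match to TTNNGCAA, starting 99 bases before the start site, and 2 overlapping matches to TATATA within 55 bases of it. The Saa1 window held 1 match to TTNNGCAA, read on the other strand as TTGCNNAA, starting 182 bases before the start site, and none to TATATA. Neither window held TTCNNNGAA, the STAT-type motif. Of 32851 mouse promoter windows of the same length, 10.8% held TTNNGCAA, 5.67% held TATATA and 8.30% held TTCNNNGAA. Aligned without gaps from end to end, the pair matched at 74 of 300 positions.

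The Saa3 cells were unevenly spread over the hashtags. MHTO8 held 117 of them, MHTO10 held 65 and MHTO7 held 10, which is 3.96% (95% exact interval 3.28 to 4.72) of MHTO8 cells, 2.60% (2.01 to 3.30) of MHTO10 cells and 0.508% (0.244 to 0.932) of MHTO7 cells. In the AT3 library as a whole the share was 2.59% (2.24 to 2.97). The same count reached 74.5% of 10038 AT3-gcsf cells, with 70.8% in MHTO3, 71.3% in MHTO4 and 80.4% in MHTO5, against 8 of 6995 naive cells (0.114%). The naive library had 4 such cells in MHTO3, 4 in MHTO5 and 0 of 2062 in MHTO4, which allows a share of up to 0.145%. After every cell was thinned at random to 2000 UMIs, the shares were 3.22% in MHTO8, 2.07% in MHTO10 and 0.306% in MHTO7, against 59.3% in AT3-gcsf and 0.0884% in naive. Depth and share did not run together across the AT3 hashtags, since MHTO7 was the deepest and had the smallest share.

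Within the AT3 library the transcript was concentrated in few cells. The 192 Saa3 cells held 3699 of 3947 Saa3 UMIs, or 93.7%, and the share was 95.7% in MHTO8, 93.0% in MHTO10 and 59.0% in MHTO7. A Saa3 cell had a median of 11.5 Saa3 UMIs (quartiles 4 and 22.5, highest 145). By hashtag the median was 13 in MHTO8, 10 in MHTO10 and 4 in MHTO7. There were 23 cells with 2 UMIs, 33 with 3 or 4, 30 with 5 to 9, 65 with 10 to 29 and 41 with 30 or more. Scaled to the depth of each cell, the median was 2566 CPM (UMIs scaled to a total of 1000000 in the cell) in the MHTO8 Saa3 cells, 2675 in those of MHTO10 and 783 in those of MHTO7. In AT3-gcsf cells with at least 2 Saa3 UMIs the median was 4661 CPM in MHTO3, 2810 in MHTO4 and 4850 in MHTO5. Cells of both libraries were counted from 2 Saa3 UMIs on, so these levels describe the cells chosen and are not compared. Just inside the threshold, the 23 cells with 2 UMIs had a median of 4133 UMIs in total and 13.8% in S100a8 with S100a9. Just outside it, the 248 cells with 1 UMI had 5492 and 24.7%. These values were not weighted by hashtag, and MHTO7 gave 57 of the 248 cells but 2 of the 23. In MHTO8 the cells with 2 UMIs had 3530 UMIs and 11.1%, and those with 1 had 5937 and 22.1%. In MHTO10 the cells with 2 UMIs had 4357.5 and 22.3%, and those with 1 had 3412 and 22.7%, so the hashtags did not share a pattern.

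**Figure D1:**
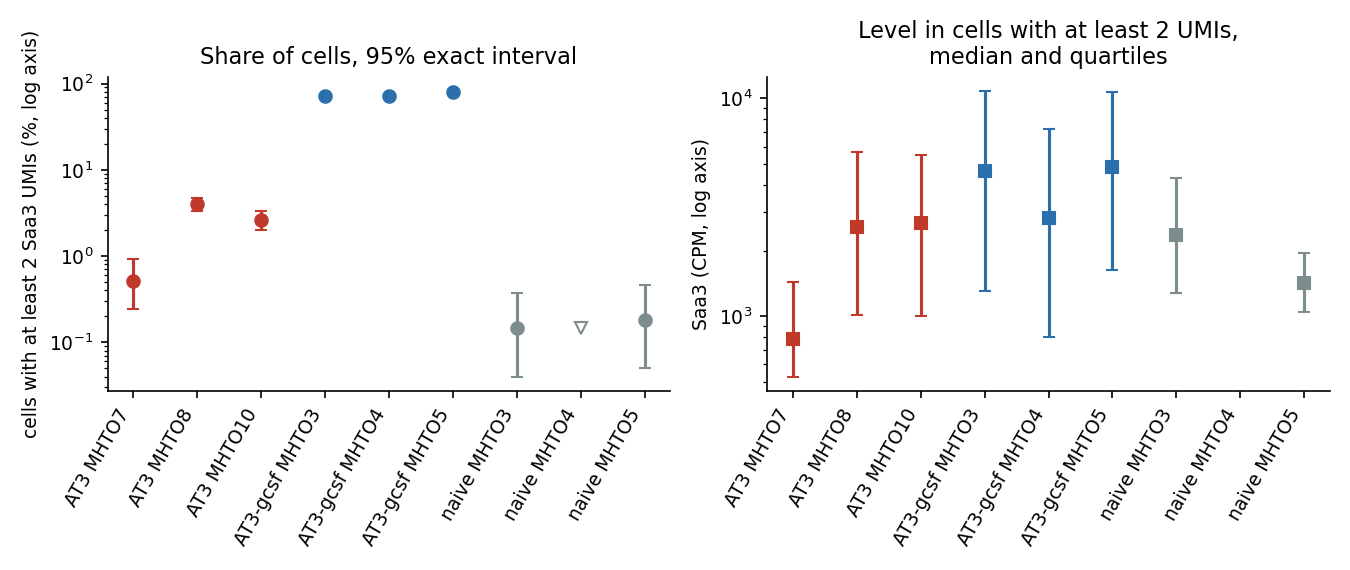
Left, the share of cells with at least 2 Saa3 UMIs (percent, log axis) for each hashtag of the AT3, AT3-gcsf and naive libraries, with 95% exact intervals; the open triangle is the upper limit for naive MHTO4, where 0 cells were found. Right, the median and quartiles of Saa3 in CPM (log axis) in those cells. The AT3 shares lie between 0.508% and 3.96%, far below the AT3-gcsf shares of 70.8% to 80.4%. The levels on the right are those of cells chosen on their Saa3 UMIs and are a description only.

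Cells below the S100a8 and S100a9 minimum give a scale for Saa3 counts elsewhere in the library. Among 192 AT3 cells that failed the S100a8 and S100a9 minimum, 6 had at least 2 Saa3 UMIs (3.12%, 1.16 to 6.68, median depth 3512 UMIs), a share of the same size as that in the passing cells. Of these 192, the 48 with 5 or more UMIs of macrophage markers held 4 of the 6, at a median depth of 17973 UMIs. The 18 with 5 or more UMIs of B, plasma, T or NK cell markers, which should lack Saa3, held 0, which allows a share of up to 16.7%, at a median depth of 5687 UMIs. A share of cells with 2 UMIs or more is not taken here as a measure of expression by itself. The equal shares cannot decide that question, since 4 of the 6 cells carried macrophage markers. The highest count was 12 Saa3 UMIs among these 6 cells and 145 in a Saa3 cell, but so few cells give no fair comparison of maxima. Cells below the S100 minimum reached 128 Saa3 UMIs in AT3-gcsf and 39 in naive.

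The Saa3 cells carried the markers of neutrophils. All 12 neutrophil markers, summed over the Saa3 cells, stood above 20 CPM. S100a8 and S100a9 are among the 12 and were part of the rule, and the cells had been sorted as neutrophils. That count is therefore no test of cell type. In what follows, a level in CPM is the summed UMIs of a gene scaled to a total of 1000000 in the class, and the zero-Saa3 cells are weighted to the hashtag makeup of the Saa3 cells. A log2 ratio is that of Saa3 cells over zero-Saa3 cells with 5 CPM added to both. Csf3r, the G-CSF receptor, was at 1433 CPM in Saa3 cells and 1319 CPM in zero-Saa3 cells (log2 0.12), and was detected in 99.1% of MHTO8 and 100% of MHTO10 Saa3 cells. Cxcr2, the receptor for neutrophil-attracting chemokines, was at 857 CPM in Saa3 cells and 883 CPM in zero-Saa3 cells (log2 -0.04). Both receptors thus stood at about the same level with and without Saa3, while several other neutrophil markers were somewhat lower in Saa3 cells. Ly6g, a surface marker of mouse neutrophils, was at 353 CPM in Saa3 cells and 517 CPM in zero-Saa3 cells (log2 -0.54). Mmp8, neutrophil collagenase, was at 816 CPM in Saa3 cells and 1080.5 CPM in zero-Saa3 cells (log2 -0.40). Retnlg, a neutrophil-secreted resistin-like protein, was at 10661 CPM in Saa3 cells and 14031 CPM in zero-Saa3 cells (log2 -0.40). The alarmins S100a8 and S100a9, which the rule uses, had log2 ratios of -0.28 and -0.24.

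Marker lists of other cell types were in part higher and in part lower in Saa3 cells than in zero-Saa3 cells. Over all Saa3 cells 3 UMIs of a gene amount to 2.69 CPM, so a single marker at 0 does not by itself show a difference. The 12 macrophage markers summed to 284 CPM in Saa3 cells and 179 CPM in zero-Saa3 cells, and the complement genes C1qa, C1qb and C1qc, together with Chil4, were at 0 in Saa3 cells. The 9 monocyte markers summed to 339 CPM in Saa3 cells and 382 CPM in zero-Saa3 cells, with Ccr2, F13a1 and Ms4a4c at 0 in Saa3 cells. The 11 dendritic cell markers summed to 1098 CPM in Saa3 cells and 854 CPM in zero-Saa3 cells, with 7 of 11, among them Flt3 and Xcr1, at 0 in Saa3 cells, while 92.7% of Saa3 cells and 86.9% of zero-Saa3 cells held 2 UMIs or more of the list. Only 1 of the 11 reached 20 CPM in Saa3 cells, so the sum rests mainly on 1 gene. Eosinophil markers summed to 38.6 CPM in Saa3 cells and 23.4 CPM in zero-Saa3 cells, with 5 of 7 at 0 in Saa3 cells. Progenitor and promyelocyte markers summed to 57.5 CPM in Saa3 cells and 42.4 CPM in zero-Saa3 cells, with Mpo and Ms4a3 at 0 in Saa3 cells. Mammary carcinoma markers summed to 45.8 CPM in Saa3 cells and 32.1 CPM in zero-Saa3 cells, with the keratins Krt5, Krt8, Krt14 and Krt18 at 0 in Saa3 cells. These 3 lists were thus low in level and somewhat higher in Saa3 cells. The B and plasma cell markers summed to 22.5 CPM in Saa3 cells and 27.1 CPM in zero-Saa3 cells, and the T and NK cell markers to 3.59 CPM in Saa3 cells and 7.76 CPM in zero-Saa3 cells. Epithelial markers summed to 118 CPM in Saa3 cells and 179 CPM in zero-Saa3 cells, and endothelial markers to 16.2 CPM in Saa3 cells and 41.4 CPM in zero-Saa3 cells. Erythroid markers summed to 8.98 CPM in Saa3 cells and 548 CPM in zero-Saa3 cells. This difference lay in MHTO8, with 7.58 CPM in Saa3 cells and 767 CPM in zero-Saa3 cells. In MHTO10 the sums were 7.56 CPM in Saa3 cells and 6.87 CPM in zero-Saa3 cells. Macrophage markers at 2 UMIs or more were found in 54 Saa3 cells (28.1%) and in 20.02% of zero-Saa3 cells, and the part of these other markers in the results below was not tested.

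In depth the Saa3 cells were close to zero-Saa3 cells of their own hashtag, except in MHTO7. In MHTO8 the median was 4947 UMIs in Saa3 cells and 4946 in zero-Saa3 cells, in MHTO10 it was 3562 in Saa3 cells and 3276 in zero-Saa3 cells, and in MHTO7 it was 5781 in Saa3 cells and 9872.5 in zero-Saa3 cells. The mitochondrial share had a median of 0.860% in Saa3 cells and 0.770% in zero-Saa3 cells of MHTO8, and of 0.820% in Saa3 cells and 0.572% in zero-Saa3 cells of MHTO10. Scrublet, a program that scores likely doublets, called 16 Saa3 cells (8.33%) and 146 zero-Saa3 cells (2.09%). The dominant hashtag took under 95% of hashtag counts in 19 Saa3 cells (9.90%) and in 352 zero-Saa3 cells (5.04%). Both measures of possible doublets were thus more frequent in Saa3 cells, and their part in the results was not tested beyond the recounts without these cells. The AT3 library shared 20 called barcodes with AT3-gcsf and 44 with naive, and none of them was a Saa3 cell.

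Few genes separated Saa3 cells from zero-Saa3 cells by 2-fold. Of 2013 genes that reached 50 CPM in either class, 12 were 2-fold apart (0.596%). Of these, 4 were at least 2-fold higher in Saa3 cells (0.199% of the genes compared) and 8 at least 2-fold lower (0.397%). The counts were 8 higher and 17 lower with the Scrublet calls removed, 27 higher and 31 lower without MHTO8, 1 higher and 4 lower with Saa3 at 1 UMI or more, and 1 higher and 5 lower with each gene limited to its second-highest cell. The median log2 ratio over all 2013 genes was 0.13, and 73.3% of genes lay above 0, so a ratio near 0.13 is the centre of the comparison. With TMM scaling, which resists a few abundant genes, that median was -0.07, so a ratio between 0 and 0.2 has no fixed sign. Zero-Saa3 cells of MHTO8 and MHTO10 differed from each other 2-fold, in either direction, at 342 of 2143 genes (16.0%), those of MHTO7 and MHTO10 at 25.6% and those of MHTO8 and MHTO7 at 26.5%. The hashtag a cell carried thus went with many more 2-fold differences than its Saa3 count did over the hashtags together. Within MHTO8 alone, 7 genes were higher in Saa3 cells (0.363%) and 9 lower (0.466%) of 1930. Within MHTO10, 29 were higher (1.29%) and 23 lower (1.02%) of 2254. The 10 MHTO7 cells gave 830 higher genes (34.3%) and 167 lower (6.90%) of 2421. They held 57463 UMIs in all, so 3 UMIs of a gene amount to 52.2 CPM. The median over all genes there was 0.68, and these MHTO7 counts are not read as a difference.

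The 4 higher genes were Ccl2, Cstdc5, Areg and Nme2. Of these, Ccl2, Areg and Nme2 reached the 50 CPM minimum only in Saa3 cells. Ccl2, a monocyte-attracting chemokine, was at 56.6 CPM in Saa3 cells and 16.4 CPM in zero-Saa3 cells (log2 1.53), and 60.3% of its UMIs in Saa3 cells came from a single cell. Cstdc5, a member of the stefin group of cysteine protease inhibitors, was at 686 CPM in Saa3 cells and 253 CPM in zero-Saa3 cells (log2 1.42), with 89.7% from a single Saa3 cell. Areg, the epidermal growth factor receptor ligand amphiregulin, was at 114 CPM in Saa3 cells and 48.0 CPM in zero-Saa3 cells (log2 1.17), with 26.0% from a single Saa3 cell. The high values of Ccl2 and Cstdc5 were thus carried mainly by 1 cell each. With each gene limited to the level of its second-highest cell, Ccl2 had a log2 ratio of 0.87 and Cstdc5 reversed to -1.37, 2-fold lower in Saa3 cells. Cstdc5 was also at -1.47 with the Scrublet calls removed, at -1.13 without MHTO8 and at -0.04 with equal weight per cell, so its direction is not settled. Without MHTO8, Ccl2 was at -0.52 and Areg at -0.33. In MHTO8, Areg was at 160 CPM in Saa3 cells and 67.0 CPM in zero-Saa3 cells and was detected in 10.3% of Saa3 cells and 5.88% of zero-Saa3 cells, whereas in MHTO10 it was at 0 CPM in Saa3 cells and 1.37 CPM in zero-Saa3 cells. The MHTO10 Saa3 cells held 264581 UMIs in all, so 3 UMIs of a gene amount to 11.3 CPM. Their 0 for Areg, and that for Ccl2 (2.32 CPM in zero-Saa3 cells of MHTO10), thus show no difference. Nme2, a nucleoside diphosphate kinase, was at 50.3 CPM (38.0 to 65.3) in Saa3 cells and 22.4 CPM in zero-Saa3 cells (log2 1.01). It was higher in both large hashtags, at 43.0 CPM in Saa3 cells and 24.2 CPM in zero-Saa3 cells of MHTO8 and at 68.0 CPM in Saa3 cells and 20.1 CPM in zero-Saa3 cells of MHTO10.

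Saa1 was too rare for that comparison, and it was found more often in Saa3 cells than in cells without Saa3. It was present in 12 of 192 Saa3 cells (6.25%, 3.27 to 10.7), in 4 of 6983 zero-Saa3 cells (0.0573%, 0.0156 to 0.147) and in 0 of the 248 cells with 1 Saa3 UMI, which allows up to 1.21%. Its summed level was 21.6 CPM (13.8 to 32.1, 24 UMIs) in Saa3 cells and 0.421 CPM in zero-Saa3 cells (13 UMIs, log2 2.29). The direction was the same in both large hashtags. In MHTO8, 9 of 117 Saa3 cells and 2 of 2720 zero-Saa3 cells held it, and in MHTO10, 3 of 65 Saa3 cells and 2 of 2361 zero-Saa3 cells. A single MHTO10 cell with 3 Saa3 UMIs held 7 of the 24 Saa1 UMIs, and 4 Saa3 cells held 2 or more. Saa3 cells with Saa1 had a median of 20.5 Saa3 UMIs (3 to 47) and those without it 11 (2 to 145). Saa2 and Saa4, further members of the family, had 1 UMI each in Saa3 cells. In the AT3-gcsf library, which did not enter the rule, Saa1 was found in 404 of 7477 cells with at least 2 Saa3 UMIs (5.40%, 4.90 to 5.94), in 12 of 1167 with 1 (1.03%) and in 12 of 1394 with 0 (0.861%, 0.446 to 1.499). In naive cells with 0 Saa3 UMIs, Saa1 was found in 0 of 6970, which allows up to 0.0430%. The genes are paralogues whose reads could in part be assigned to the wrong copy, and this was not tested. The 4 zero-Saa3 cells with Saa1 held up to 6 Saa1 UMIs beside no Saa3.

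The naming rule took genes with the same direction in MHTO8 and MHTO10, and the 15 highest ratios under it ran from 0.69 to 1.01. After Nme2 came Mif4gd, a MIF4G-domain protein linked to translation, at 60.2 CPM in Saa3 cells and 27.8 CPM in zero-Saa3 cells (log2 0.99). Trf, the iron carrier transferrin, was at 366 CPM (332 to 404) in Saa3 cells and 185 CPM in zero-Saa3 cells (log2 0.97). In MHTO8 Trf was at 422 CPM in Saa3 cells and 204 CPM in zero-Saa3 cells, and in MHTO10 at 234 CPM in Saa3 cells and 151 CPM in zero-Saa3 cells. It was detected in 58.1% of Saa3 cells and 39.0% of zero-Saa3 cells in MHTO8, and in 41.5% of Saa3 cells and 26.3% of zero-Saa3 cells in MHTO10, so the higher level was spread over many cells. Ctss, the lysosomal cysteine protease cathepsin S, was at 250 CPM (221 to 281) in Saa3 cells and 136 CPM in zero-Saa3 cells (log2 0.86). It was detected in 60.7% of Saa3 cells and 45.2% of zero-Saa3 cells in MHTO8, and in 55.4% of Saa3 cells and 36.9% of zero-Saa3 cells in MHTO10. Clec4a3, a C-type lectin receptor of myeloid cells, was at 89.8 CPM (73.1 to 109) in Saa3 cells and 47.2 CPM in zero-Saa3 cells (log2 0.86), and was detected in 29.9% of Saa3 cells and 17.1% of zero-Saa3 cells in MHTO8, and in 30.8% of Saa3 cells and 16.4% of zero-Saa3 cells in MHTO10. Trf, Ctss and Clec4a3 were therefore seen in a larger share of Saa3 cells in each large hashtag.

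The others of the 15 were Mtdh, Odc1, Llph, Mt1, Dusp2, Snrpg, Atp5g2, Rbm8a, Snrpe and Efcab14. Odc1, the first enzyme of polyamine synthesis, was at 55.7 CPM in Saa3 cells and 29.1 CPM in zero-Saa3 cells (log2 0.83). Dusp2, a phosphatase that acts on MAP kinases, was at 142 CPM in Saa3 cells and 81.3 CPM in zero-Saa3 cells (log2 0.77), and in MHTO10 at 11.3 CPM in Saa3 cells and 3.28 CPM in zero-Saa3 cells. Its MHTO10 level in Saa3 cells amounts to 3 UMIs. The metallothionein Mt1 was at 61.1 CPM in Saa3 cells and 33.2 CPM in zero-Saa3 cells (log2 0.79), but its MHTO10 ratio was 0.13 and its ratio after thinning was -0.14. Snrpg and Snrpe, core proteins of the splicing machinery, had log2 ratios of 0.76 and 0.69, Rbm8a, an exon junction protein, 0.71, and Atp5g2, an ATP synthase subunit, 0.73. All of the 15 except Trf, Ctss and Dusp2 reached the 50 CPM minimum only in Saa3 cells. All were also taken for their high ratios, so their common direction is no support.

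Genes lower in Saa3 cells included Olfm4 and some of the stefins. Olfm4, a protein of the granules of a subset of neutrophils, was at 10.8 CPM (5.57 to 18.8, 12 UMIs) in Saa3 cells and 75.8 CPM in zero-Saa3 cells (log2 -2.36). In MHTO8 it was at 13.9 CPM in Saa3 cells and 77.3 CPM in zero-Saa3 cells, and in MHTO10 at 3.78 CPM in Saa3 cells and 50.8 CPM in zero-Saa3 cells. Cstdc4, a stefin-type protease inhibitor, was at 565 CPM in Saa3 cells and 1161 CPM in zero-Saa3 cells (log2 -1.03). It was lower in MHTO8, at 398 CPM in Saa3 cells and 1147 CPM in zero-Saa3 cells, and in MHTO10, at 654 CPM in Saa3 cells and 1252 CPM in zero-Saa3 cells, while the 10 MHTO7 Saa3 cells had 2454 CPM and the MHTO7 zero-Saa3 cells 920 CPM. Stfa2, of the same family, was at 72.7 CPM in Saa3 cells and 138 CPM in zero-Saa3 cells (log2 -0.88), and stefin genes are near-copies whose reads may be shared among them. The stefin and cystatin list as a whole was not lower, with a median of 0.05 and 4 of 6 measured genes above 0, among them Cst3, the inhibitor cystatin C (log2 0.37), and Stfa3 (0.73), which was at -1.31 with the Scrublet calls removed and at -0.71 with the second-highest-cell limit. Acvrl1, a receptor of the TGF-beta family, was at 40.4 CPM in Saa3 cells and 78.5 CPM in zero-Saa3 cells (log2 -0.88), and Arl11, a small GTPase, at 33.2 CPM in Saa3 cells and 54.8 CPM in zero-Saa3 cells (log2 -0.65). The other genes 2-fold lower were the globins Hbb-bs, Hbb-bt, Hba-a1 and Hba-a2, the secreted phosphoprotein Spp1 and the lung surfactant gene Sftpc, and of these Hba-a1, Hba-a2 and Sftpc lay outside the naming rule and were chosen after their values were seen. Single cells held most of the counts here too. In zero-Saa3 cells 74.7% to 87.8% of the UMIs of each globin, and 69.9% of those of Sftpc, came from 1 cell. With the second-highest-cell limit the log2 ratio was -2.18 for Hbb-bs, -1.06 for Hbb-bt, -2.89 for Hba-a1, -2.37 for Hba-a2 and -0.03 for Sftpc. The globins thus stayed lower under that limit, but they were not among the 5 lower genes counted there, which had to reach 50 CPM. Without MHTO8 their log2 ratios were 0.06 for Hbb-bs, -0.40 for Hbb-bt, 0.21 for Hba-a1 and 0.27 for Hba-a2. The 2-fold lower globin levels were thus confined to MHTO8. Spp1 was at 17.1 CPM in Saa3 cells and 85.9 CPM in zero-Saa3 cells, but its direction differed between hashtags, with 17.7 CPM in Saa3 cells and 118 CPM in zero-Saa3 cells of MHTO8, and 18.9 CPM in Saa3 cells and 8.14 CPM in zero-Saa3 cells of MHTO10.

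**Figure D2:**
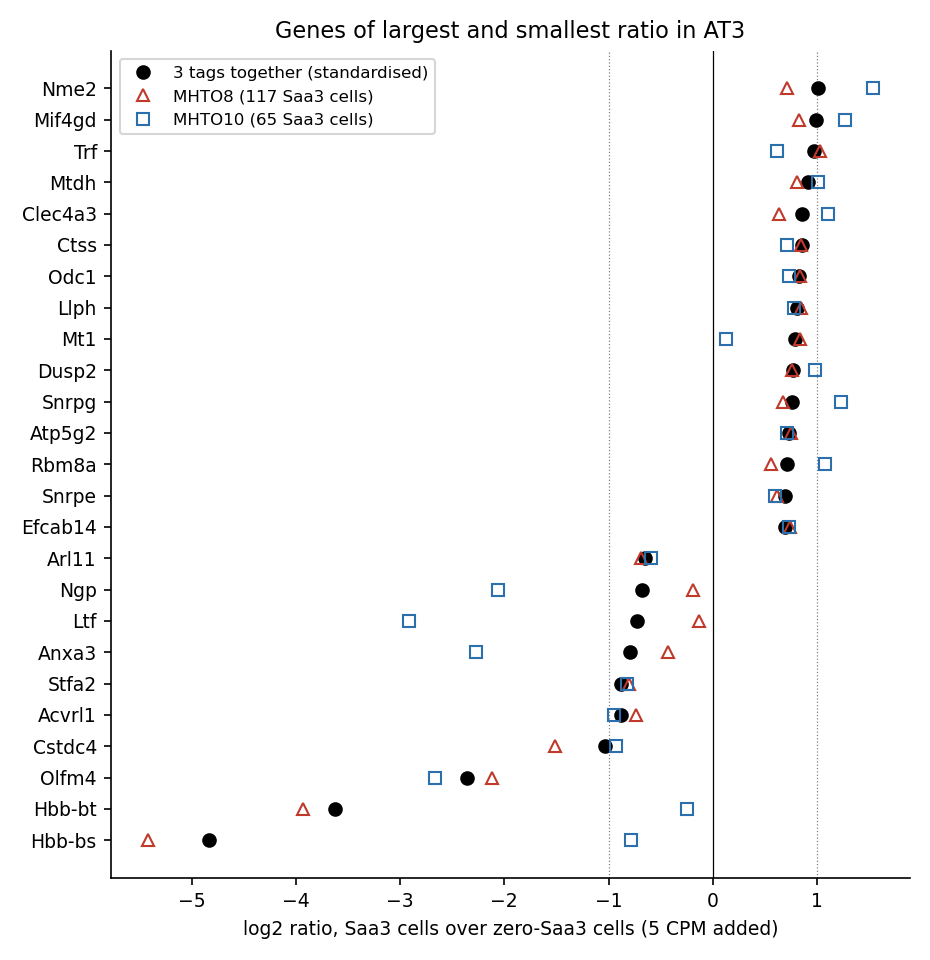
The log2 ratio of Saa3 cells over zero-Saa3 cells (5 CPM added) for the 15 genes of highest and the 10 of lowest ratio under the naming rule, over all AT3 hashtags and within MHTO8 and MHTO10. Dotted lines mark 2-fold. The higher genes lie close together at 0.69 to 1.01, and among the lower genes Ngp, Ltf and Anxa3 lie far lower in MHTO10 than in MHTO8.

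Secondary granule genes, which neutrophils transcribe while they mature in the marrow, were lower in MHTO10 Saa3 cells and near the centre in those of MHTO8, and this difference between hashtags was not tested. Over 10 measured genes the median log2 ratio was -0.27, with -0.02 in MHTO8 and -1.36 in MHTO10, where all genes had medians of 0.11 and 0.14. Ltf, the granule protein lactoferrin, was at 83.2 CPM in Saa3 cells and 660.5 CPM in zero-Saa3 cells of MHTO10 (log2 -2.92), and at 936 CPM in Saa3 cells and 1024 CPM in zero-Saa3 cells of MHTO8 (log2 -0.13). Ngp, neutrophilic granule protein, was at 627 CPM in Saa3 cells and 2626 CPM in zero-Saa3 cells of MHTO10 (log2 -2.06), and at 3986 CPM in Saa3 cells and 4534 CPM in zero-Saa3 cells of MHTO8 (log2 -0.19). The cathelicidin gene Camp was at 215 CPM in Saa3 cells and 1213 CPM in zero-Saa3 cells of MHTO10, but at 2513 CPM in Saa3 cells and 1778 CPM in zero-Saa3 cells of MHTO8. Few cells set these sums, since 49.8% of Camp UMIs, 33.1% of Ltf UMIs and 29.4% of Ngp UMIs in Saa3 cells came from 1 cell each. Lcn2, the siderophore-binding protein lipocalin 2, was lower in both hashtags, at 5024 CPM in Saa3 cells and 6014 CPM in zero-Saa3 cells of MHTO8 and at 3353 CPM in Saa3 cells and 4761 CPM in zero-Saa3 cells of MHTO10 (log2 -0.45 over all). In MHTO7, where the granule genes were highest without Saa3, Camp was at 174 CPM in the 10 Saa3 cells and 10551 CPM in the zero-Saa3 cells.

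Inflammatory gene groups lay slightly above the centre in MHTO8 and not in MHTO10, and this difference was not tested either. All 14 measured NF-kB targets and feedback genes had ratios above 0 (0.02 to 0.65), with a median of 0.26, 0.28 in MHTO8 and -0.04 in MHTO10, and none was 2-fold higher. Nfkbia, the inhibitor that NF-kB itself induces, was at 2727 CPM in Saa3 cells and 1928 CPM in zero-Saa3 cells of MHTO8, but at 234 CPM in Saa3 cells and 248 CPM in zero-Saa3 cells of MHTO10. Icam1, an adhesion molecule, was at 78.3 CPM in Saa3 cells and 44.6 CPM in zero-Saa3 cells of MHTO8, and at 0 CPM in Saa3 cells and 9.83 CPM in zero-Saa3 cells of MHTO10. Over all hashtags Icam1 reached the 50 CPM minimum only in Saa3 cells. Ccrl2, an atypical chemerin-binding receptor, was at 1140 CPM in Saa3 cells and 767 CPM in zero-Saa3 cells of MHTO8, and at 18.9 CPM in Saa3 cells and 25.3 CPM in zero-Saa3 cells of MHTO10. Sod2, mitochondrial superoxide dismutase, differed from these in being higher in both, at 222 CPM in Saa3 cells and 147 CPM in zero-Saa3 cells of MHTO8 and at 41.6 CPM in Saa3 cells and 32.5 CPM in zero-Saa3 cells of MHTO10. The 12 chemokines and cytokines had a median of 0.29, with 9 above 0 and 1 of them, Ccl2, 2-fold higher. Among them Il1b, interleukin 1 beta, was at 13055 CPM in Saa3 cells and 11493 CPM in zero-Saa3 cells (log2 0.18), a ratio near the centre of all genes. Cxcl3, a neutrophil-attracting chemokine, was at 133 CPM in Saa3 cells and 73.2 CPM in zero-Saa3 cells (log2 0.82), and Tnf, tumour necrosis factor, at 60.2 CPM in Saa3 cells and 35.6 CPM in zero-Saa3 cells (log2 0.68), both with 0 CPM in MHTO10 Saa3 cells. In these MHTO10 cells 3 UMIs amount to 11.3 CPM. The MHTO10 zero-Saa3 levels of Icam1, Cxcl3 (3.17 CPM) and Tnf (5.60 CPM) lie below that, so their 0 there shows no difference. Tnf reached the 50 CPM minimum only in Saa3 cells. Csf1, macrophage colony-stimulating factor, was at 103 CPM in Saa3 cells and 65.6 CPM in zero-Saa3 cells (log2 0.62), with 0.63 in MHTO8 and 0.62 in MHTO10.

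Other acute phase genes and targets of G-CSF signalling had medians below that of all genes. Of 7 measured acute phase genes 1 had a ratio above 0, and the median was -0.11. Hp, the haemoglobin-binding protein haptoglobin, was at 2987 CPM in Saa3 cells and 3104 CPM in zero-Saa3 cells, and Lrg1, a secreted leucine-rich glycoprotein, at 2123 CPM in Saa3 cells and 2186 CPM in zero-Saa3 cells. Of 14 measured genes known as G-CSF or STAT3 targets, 9 were above 0, the median was 0.09 and none was 2-fold apart. Socs3, the feedback inhibitor of G-CSF signalling, was at 436 CPM in Saa3 cells and 388 CPM in zero-Saa3 cells (log2 0.17), and Stat3 at 178 CPM in Saa3 cells and 166 CPM in zero-Saa3 cells (log2 0.09). Tnfaip6, a hyaluronan-binding secreted protein, was the member farthest from 0, at 36.8 CPM in Saa3 cells and 65.3 CPM in zero-Saa3 cells (log2 -0.75).

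Other lists showed small shifts, to be read beside the 73.3% of all genes above 0 and their median of 0.13, which TMM scaling moved to -0.07. Oxidative phosphorylation had a median of 0.21 with 15 of 17 genes above 0, in MHTO8 0.20 and in MHTO10 0.28, and its highest member, the ATP synthase subunit Atp5a1, was at 70.9 CPM in Saa3 cells and 50.2 CPM in zero-Saa3 cells (log2 0.46). Class I antigen presentation had 8 of 9 above 0 and a median of 0.18, with the immunoproteasome subunit Psmb9 at 173 CPM in Saa3 cells and 138 CPM in zero-Saa3 cells (log2 0.31). Immediate-early genes had 17 of 20 above 0 and a median of 0.16, and survival and death genes 8 of 9 and 0.22. Genes associated with myeloid suppressor cells had 11 of 17 above 0 and a median of 0.13, the same as all genes, and interferon-stimulated genes 8 of 15 and 0.05. Glycolysis had 2 of 14 above 0 and a median of -0.08, and gelatinase granule genes 4 of 17 and -0.05. No member of these lists was 2-fold apart in either direction. Of 10 matrix and repair factors, Areg was 2-fold higher and Spp1 2-fold lower.

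**Figure D3:**
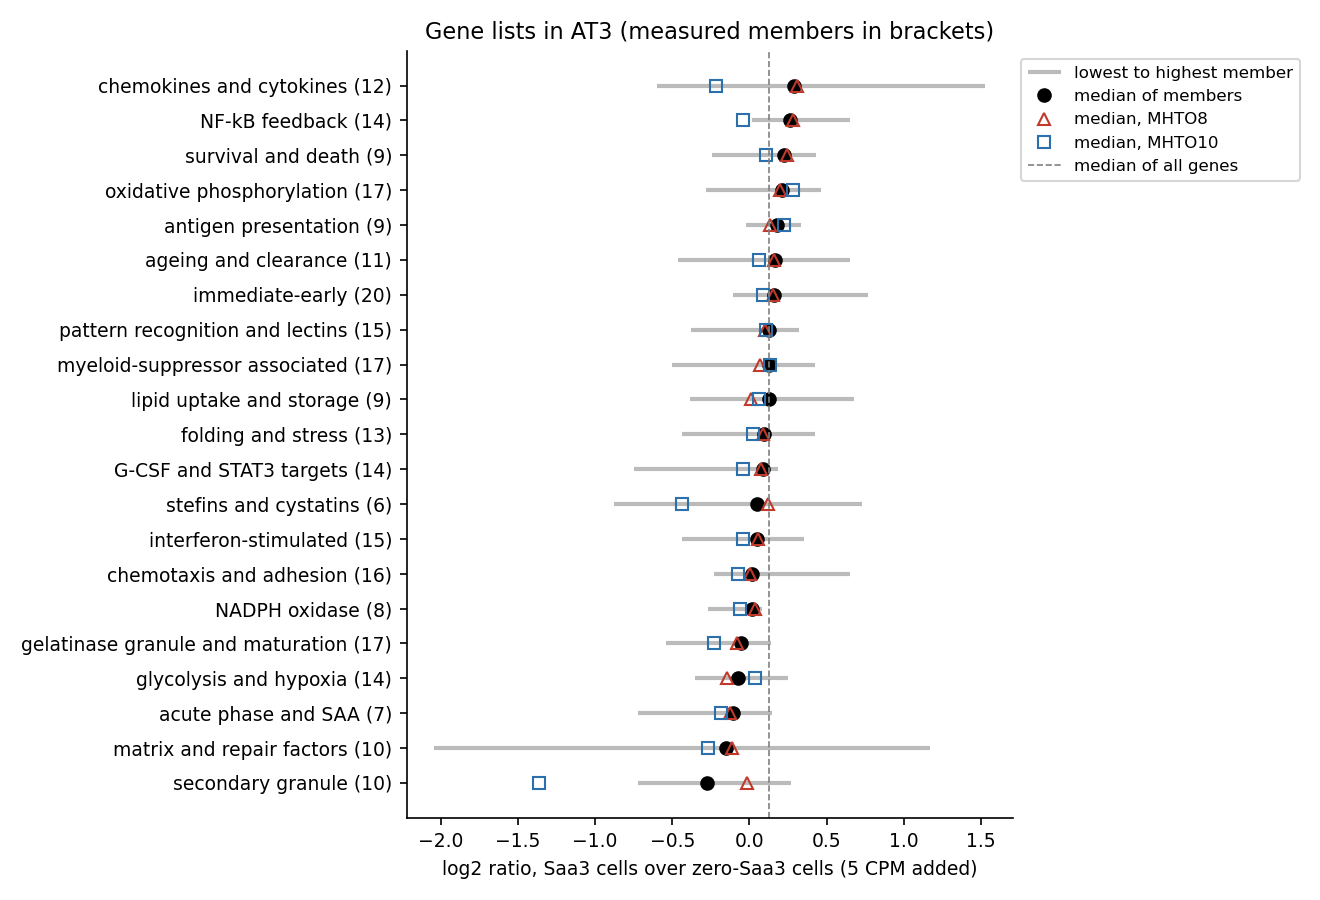
For each gene list with at least 5 measured members, the grey bar spans the lowest to the highest log2 ratio of Saa3 cells over zero-Saa3 cells, with the median over all hashtags, within MHTO8 and within MHTO10. The dashed line is the median of all 2013 genes, 0.13. Most list medians lie near that line, and the secondary granule list in MHTO10, at -1.36, lies farthest from it.

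Whether Saa3 cells resemble AT3-gcsf cells was examined with genes chosen without any AT3 cell. Of 2247 genes compared between the AT3-gcsf and naive libraries, 49 (2.18%) were at least 4-fold higher in AT3-gcsf with each of its hashtags above each naive hashtag, and 50 (2.23%) were lower by the same rule, Saa3 left aside. Of the 49 higher genes, 34 were measured in the AT3 comparison. Their median log2 ratio of Saa3 cells over zero-Saa3 cells was 0.16, against 0.13 for all genes, and 22 of 34 (64.7%) were above 0, against 73.3% of all genes. By hashtag the median was 0.10 in MHTO8, where all genes had 0.11, and 0.19 in MHTO10, where all genes had 0.14. Of the 34, Cstdc5 and Nme2 were 2-fold higher in Saa3 cells and none was 2-fold lower. This count turned round with each gene limited to its second-highest cell, where Cstdc5 (log2 -1.37) and Stfa2 (-1.03) were 2-fold lower and Nme2, at 0.93, was no longer 2-fold higher. Of the 50 lower genes, 20 were measured, with a median of 0.05, and the globins Hba-a1, Hba-a2 and Hbb-bs were 2-fold lower. None of these globins was lower without MHTO8.

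AT3 cells without Saa3 already lay between naive and AT3-gcsf cells in these genes, although condition and library cannot be told apart in comparisons between libraries. Over the 34 genes the median log2 ratio was 2.52 for AT3-gcsf over naive and 1.67 for zero-Saa3 AT3 cells over naive. The genes were chosen as far apart between AT3-gcsf and naive cells, so a value in between is in part set by that choice. The 34 also had to reach 50 CPM in AT3, which left out genes low there and can raise the 1.67. The summed level of all 49 genes, the 15 not measured in AT3 included, was 44956 CPM in Saa3 cells, 40601 CPM in zero-Saa3 cells, 77964 CPM in AT3-gcsf cells and 6140 CPM in naive cells. Wfdc17, a secreted WAP-domain protein, was at 14799 CPM in Saa3 cells, 13480 CPM in zero-Saa3 cells, 25858 CPM in AT3-gcsf and 583 CPM in naive cells. Ifitm1, an interferon-induced membrane protein, was at 12076 CPM in Saa3 cells, 10923 CPM in zero-Saa3 cells, 22849 CPM in AT3-gcsf and 772 CPM in naive cells. Saa3 cells thus stood by the zero-Saa3 cells for both, well short of AT3-gcsf. Igfbp6, an insulin-like growth factor binding protein, was at 674 CPM in Saa3 cells, 545 CPM in zero-Saa3 cells, 608 CPM in AT3-gcsf and 13.9 CPM in naive cells. Prok2, the prokineticin also called Bv8, which G-CSF is known to induce in mouse myeloid cells, was at 399.6 CPM in Saa3 cells, 567 CPM in zero-Saa3 cells, 1470 CPM in AT3-gcsf and 23.8 CPM in naive cells. Its direction differed between hashtags, with 368 CPM in Saa3 cells and 601 CPM in zero-Saa3 cells of MHTO8. In MHTO10 it was at 495 CPM in Saa3 cells and 448 CPM in zero-Saa3 cells. Ctss was at 250 CPM in Saa3 cells, 136 CPM in zero-Saa3 cells, 164 CPM in AT3-gcsf and 33.9 CPM in naive cells, so it was highest in Saa3 cells.

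**Figure D4:**
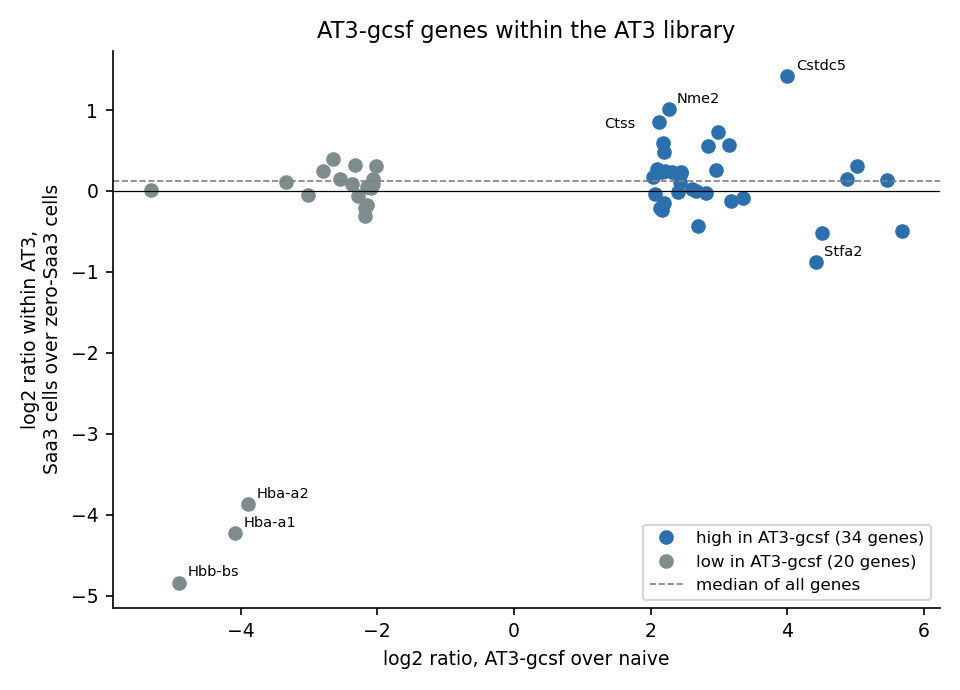
Each point is a gene chosen between the AT3-gcsf and naive libraries (34 higher and 20 lower that were measured in AT3), with the log2 ratio of AT3-gcsf over naive on the horizontal axis and that of Saa3 cells over zero-Saa3 cells on the vertical axis. The higher genes spread around a vertical median of 0.16 and the lower genes around 0.05, with the globins and Cstdc5 farthest out.

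Cell by cell, the share of UMIs in the AT3-gcsf-high genes was nearly the same in Saa3 and zero-Saa3 cells of MHTO8 and MHTO10. In cells thinned to 2000 UMIs the median was 4.0% in Saa3 cells and 4.08% in zero-Saa3 cells of MHTO8, 4.80% in Saa3 cells and 4.45% in zero-Saa3 cells of MHTO10, and 4.17% in the 10 Saa3 cells and 2.80% in zero-Saa3 cells of MHTO7. Over all hashtags the median was 4.35% in Saa3 cells, 4.0% in zero-Saa3 cells, 7.50% in AT3-gcsf cells and 0.50% in naive cells. Values over all hashtags in this part were not weighted by hashtag. MHTO7 gave 1892 of 6735 zero-Saa3 cells but 10 of 187 Saa3 cells. Within AT3-gcsf the cells with at least 2 Saa3 UMIs had 7.55% and those with 0 had 7.35%. The differences by Saa3 were thus small beside those between the libraries. The 10th percentile of AT3-gcsf cells was reached by 59 of 187 Saa3 cells (31.6%, 24.96 to 38.7) and by 1752 of 6735 zero-Saa3 cells (26.0%). In MHTO8 it was reached by 25.9% of Saa3 cells and 25.3% of zero-Saa3 cells, and in MHTO10 by 42.6% (30.04 to 55.9) of Saa3 cells and 35.4% of zero-Saa3 cells. In the thinned comparison 5 Saa3 cells and 248 zero-Saa3 cells were too shallow to enter. By Saa3 count the median was 4.15% in cells with 2 UMIs, 4.0% with 3 or 4, 4.50% with 5 to 9, 4.35% with 10 to 29 and 4.65% with 30 or more.

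**Figure D5:**
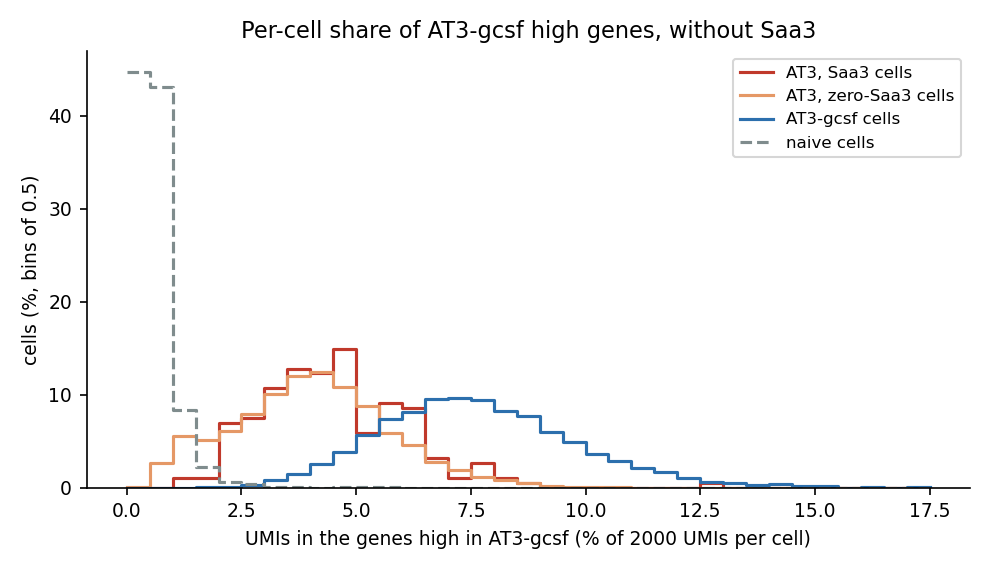
Distribution over cells of the share of UMIs in AT3-gcsf-high genes (horizontal axis, percent of 2000 UMIs, bins of 0.5%; vertical axis, percent of cells) for Saa3 cells, zero-Saa3 cells, AT3-gcsf cells and naive cells. The Saa3 and zero-Saa3 curves overlap over most of their range, but more of the zero-Saa3 cells lie at low shares. Medians are 4.35% in Saa3 cells and 4.0% in zero-Saa3 cells, between naive cells at 0.50% and AT3-gcsf cells at 7.50%. Cells are not weighted by hashtag, and MHTO7 gave 1892 of 6735 zero-Saa3 cells but 10 of 187 Saa3 cells.

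Nearest neighbours gave a further view over 2000 variable genes, without Saa3 but with the AT3-gcsf-high genes left in. Each library contributed 5655 thinned cells, and the 30 nearest neighbours were taken in 30 principal components with Saa3 left out. On average 25.1% of the neighbours of Saa3 cells and 24.9% of the neighbours of zero-Saa3 cells were AT3-gcsf cells. In MHTO8 the value was 22.4% for Saa3 cells and 25.6% for zero-Saa3 cells, in MHTO10 27.5% for Saa3 cells and 23.3% for zero-Saa3 cells, and in MHTO7 40.3% for Saa3 cells and 25.8% for zero-Saa3 cells. The hashtags therefore did not share a direction. A majority of AT3-gcsf neighbours was found for 36 of 187 Saa3 cells (19.3%) and 1006 of 5269 zero-Saa3 cells (19.1%). Saa3 cells were also spread among the other AT3 cells. Among the nearest AT3 neighbours, 5.72% were Saa3 cells around MHTO8 Saa3 cells and 5.20% around MHTO8 zero-Saa3 cells, and in MHTO10 it was 3.22% around Saa3 cells and 3.11% around zero-Saa3 cells. Across 2013 genes the summed log2 profile of MHTO8 Saa3 cells had a Pearson correlation of 0.975 with MHTO8 zero-Saa3 cells and 0.941 with AT3-gcsf MHTO5, and that of MHTO8 zero-Saa3 cells with AT3-gcsf MHTO5 was 0.943. The MHTO10 Saa3 profile had correlations of 0.969 with MHTO10 zero-Saa3 cells and 0.924 with AT3-gcsf MHTO3, and that of MHTO10 zero-Saa3 cells with AT3-gcsf MHTO3 was 0.942. These are correlations across genes, which are not replicates, and the Saa3 profiles rest on far fewer UMIs than those of the zero-Saa3 cells.

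The genes that went with Saa3 in AT3 were then read in the AT3-gcsf library, which the rule did not use. There the 25% of cells with the highest Saa3 share within each hashtag (Saa3-rich) were set against the 25% with the lowest (Saa3-poor), 2511 cells each, and 87 of 1942 genes (4.48%) were 2-fold higher and 43 (2.21%) 2-fold lower. The Saa3-rich cells were shallower, with a median of 5820 UMIs, against 9947 in Saa3-poor cells, so both classes were also formed within 5 bins of total UMIs, where the medians were 7517 in Saa3-rich and 7769 in Saa3-poor cells. In that comparison 5 of 1748 genes (0.286%) were 2-fold higher and 9 (0.515%) 2-fold lower. All 15 genes of highest ratio in AT3 lay above 0 in AT3-gcsf, with a median of 0.33 in the depth-matched comparison, where 75.3% of all genes lay above 0 with a median of 0.12. Of the 10 lowest, 7 lay below 0. In that comparison Clec4a3 was at 58.6 CPM in Saa3-rich and 24.9 CPM in Saa3-poor cells (log2 1.09), and Mt1 at 93.0 CPM in Saa3-rich and 42.3 CPM in Saa3-poor cells (log2 1.05). Ctss was at 221 CPM in Saa3-rich and 131 CPM in Saa3-poor cells (log2 0.74), Nme2 at 91.4 CPM in Saa3-rich and 56.0 CPM in Saa3-poor cells (log2 0.66), and Trf at 593 CPM in Saa3-rich and 404 CPM in Saa3-poor cells (log2 0.55).

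The other depth-matched higher genes were Apoe, Mmp19 and F10. Apoe, the lipid carrier apolipoprotein E and one of the macrophage markers, was at 290 CPM in Saa3-rich and 125 CPM in Saa3-poor cells (log2 1.19). Mmp19, a matrix metalloproteinase, was at 56.6 CPM in Saa3-rich and 21.0 CPM in Saa3-poor cells (log2 1.25), and F10, coagulation factor X, at 86.4 CPM in Saa3-rich and 36.8 CPM in Saa3-poor cells (log2 1.13). In AT3, Apoe was at 114 CPM in Saa3 cells and 75.8 CPM in zero-Saa3 cells (log2 0.56). The lower genes were led by granule genes, with Camp at 62.1 CPM in Saa3-rich and 953 CPM in Saa3-poor cells (log2 -3.84), Ltf at 145 CPM in Saa3-rich and 1517 CPM in Saa3-poor cells (log2 -3.34) and Ngp at 777 CPM in Saa3-rich and 4936 CPM in Saa3-poor cells (log2 -2.66). Read back in AT3, the 72 measured genes of the 87 higher in AT3-gcsf without depth matching had a median of 0.36 where all genes had 0.13, with 69 above 0, and the 33 measured of the 43 lower had a median of -0.35, with 4 above 0. Of all genes compared in AT3, 73.3% lay above 0. With depth matching, 3 measured higher genes had a median of 0.79, with 0.63 in MHTO8 and 0.99 in MHTO10. The 8 measured lower genes had a median of -0.29, but 0.10 in MHTO8 and -2.06 in MHTO10, so their summed levels were not lower in the hashtag with most Saa3 cells. Few cells set the sums of Camp, Ltf and Ngp in Saa3 cells, as given above. Over all hashtags Ltf, at -0.72 as reported, was at -1.19 with Scrublet calls removed and 0.02 with Saa3 at 1 UMI or more. Ngp, at -0.68 as reported, was at -1.19 and -0.01 in these settings, so a lower level in MHTO8 is not settled. The 8 naive cells with at least 2 Saa3 UMIs were too few for the same reading.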

How the data were processed

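Single-cell RNA libraries of sorted mouse neutrophils were read from the deposited UMI count matrices, which the authors made with Cell Ranger 4.0.0 per the file headers and aligned to mm10 per the submitters' processing notes, which also name bcl2fastq 2.20.0.422. Hashtag counts are in the deposited tables as well, and the program that made them is not stated there. The labels give the 10x version and sort, and no filter on cells beyond the called barcodes. Filters were at least 200 genes, under 10% mitochondrial UMIs, S100a8 with S100a9 at 2% or more, and a top hashtag with 80% or more of at least 20 counts. A dominant hashtag was found for 97.4% of AT3, 94.1% of AT3-gcsf and 95.7% of naive barcodes, with library totals of 54424062, 99703525 and 32089597 UMIs.

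Counts were summed per class and scaled to CPM, with zero-Saa3 CPM weighted by the UMI share of each hashtag in the Saa3 cells. Genes were compared from 50 CPM, with 5 CPM added before log2, and called at 2-fold. Intervals are 95% exact Clopper-Pearson or Poisson. The share that a count of 0 allows is instead 3 counts of the total, which is lower than the exact upper bound. Hashtag cross-talk was limited by the purity rule, and Scrublet removal and TMM scaling (edgeR 4.0.16) were alternatives. Scanpy 1.11.5 and scikit-learn 1.9.0 ran in python 3.11.15. The calculation was tested on simulated summed counts without variation between cells, so that test does not cover sums carried by single cells. Named genes were the 15 highest and 10 lowest ratios with 1 direction in both hashtags of at least 50 Saa3 cells, the 3 largest of each list, the 10 strongest AT3-gcsf-high genes, and Saa and neutrophil genes. Camp, Csf1, Hp, Il1b, Lrg1, Nfkbia, Retnlg, Socs3, Stat3, F10 and Mmp19 lie outside that rule and were chosen after their values were seen. The members and gene lists were chosen with earlier results of these data known.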

Additional observations from a re-analysis of the deposited data

Results flagged for a closer look

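Saa3 was also found in cells below the S100a8 and S100a9 minimum, whose type was not established. Of 192 AT3 cells with S100a8 and S100a9 under 2% of UMIs, which enter no comparison, 3.125% held at least 2 Saa3 UMIs, against 0.262% of 381 such naive cells. The highest of these AT3 cells held 12 Saa3 UMIs, and 4 of the 6 carried 5 or more UMIs of macrophage markers. In AT3-gcsf 72 of 126 such cells (57.1%) held at least 2. Of the 12 among them with 5 or more UMIs of B, plasma, T or NK cell markers, 1 held 2 Saa3 UMIs and 8 held 1.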

How the results depend on the processing

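No paired analysis was possible because each condition has 1 library and the hashtags carry no replicate number. The count of genes 2-fold higher in Saa3 cells (4 as reported) was 2 with 20 CPM added, 43 with no minimum level, 2 with TMM scaling, 1 with Saa3 at 1 UMI or more, 7 with equal weight per cell, 8 with Scrublet calls removed, 27 without hashtag MHTO8, and 1 with each gene limited to its second-highest cell. The count 2-fold lower (8) was 24 with no minimum, 4 with Saa3 at 1 UMI or more, 3 with equal weight, 17 with Scrublet calls removed, 14 at 95% hashtag purity, 31 without MHTO8 and 5 under the second-highest-cell limit. The cause was not tested.

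TMM scaling moved the median of AT3-gcsf-high genes to -0.051 and that of all genes to -0.07. The AT3-gcsf-high median kept within 0.2 in the other 20 of 21 alternatives, as did the median of AT3-gcsf-low genes in all 21 and the cell score (within 0.5 points) in 13 of 13. These tolerances are wider than the differences themselves, so they do not show that a direction held. The AT3-gcsf-high median was -0.009 with Saa3 at 1 UMI or more (all genes 0.047) and 0.095 after thinning (all genes 0.133). In other settings it lay above that of all genes. The score difference of Saa3 and zero-Saa3 cells was 0.14 points as reported and 0.49 without MHTO8. Shares in MHTO7, MHTO8 and MHTO10 were 3.40%, 7.98% and 5.48% at 1 UMI or more, 0.203%, 3.01% and 1.72% at 5 or more, and 1.23%, 5.09% and 3.97% at 1 or more after thinning. The AT3-gcsf share among neighbours of MHTO8 Saa3 cells was 19.4% with 15 principal components (22.4% as reported). In AT3-gcsf the 87 higher and 43 lower genes became 5 and 9 with depth matching, and 3 and 3 between cells with at least 2 and with 0 Saa3 UMIs. Leaving out every cell with 2 or more UMIs of other-type markers kept 1 Saa3 cell and gave no value. The limit to the second-highest cell, the marker exclusion restricted to markers under 20 CPM, both further AT3-gcsf contrasts and the tolerances were chosen after seeing the data.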
